A study of Homo sapiens with 3 samples.

Results

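The 48 genes described here encode the machinery that copies DNA at the replication fork and the enzymes that supply its nucleotides, with several proteins that act with the fork on chromatin. They were chosen by gene symbol, and all 48 were found by their Ensembl identifiers among the 58333 genes of the deposited table. Cal62 is an established human thyroid tumor cell line, so every library comes from 1 line grown in DMEM with fetal bovine serum. The cells were transfected by Lipofectamine RNAimax with a negative control siRNA (siControl) or with 1 of 2 siRNAs against ADAR1 (siADAR1 #1 and siADAR1 #2), the adenosine deaminase that converts adenosine to inosine in double-stranded RNA and is encoded by ADAR. All 3 groups therefore received a siRNA and the same transfection, and how long after it the RNA was isolated is not given. Poly(A)+ RNA was sequenced from 2 replicates per group. GEO's labels give 1 sample per group, and the replicates are those of the 2 columns that the table holds for each.

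In a dividing cell, an origin loaded with the MCM helicase is fired when CDC7 and DBF4, a kinase and its activating subunit, and a set of loading factors bring CDC45 and the GINS complex to the helicase. Polymerase alpha with primase starts each strand, polymerases epsilon and delta extend the strands while held by the PCNA ring, and RPA covers the exposed single strands until nucleases and a ligase join the Okazaki fragments. Ribonucleotide reductase, thymidylate synthase, thymidine kinase and dUTPase keep the deoxynucleotides in supply. Most of these genes are transcribed in late G1 and S phase, many of them under E2F factors. In bulk RNA a lower level of such a transcript in each cell and a smaller share of cells in S phase cannot be told apart.

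The libraries held from 30114840 to 50029763 reads on genes. Each of the 48 genes had at least 237 reads in every library and at most 35855, and all 48 passed a filter at a mean of 10 normalized counts that left 19590 genes to test. A normalized count is the number of reads divided by the library's size factor. ADAR (chromosome 1, 154581695 to 154628013, GRCh38) had 10906 and 11701 normalized counts in the siControl libraries, 1328 and 2246 with siADAR1 #1, and 1664 and 2928 with siADAR1 #2. The targeted gene was thus lower in all 4 siADAR1 libraries, at 15.8% of the siControl mean with siADAR1 #1 (log2FC -2.71 ± 0.30 (SE), adjusted p = 0.00294) and at 20.3% with siADAR1 #2 (log2FC -2.35 ± 0.30, adjusted p = 0.00124). Of the thyroid markers, PAX8 had 2542 to 15868 normalized counts and HHEX 1769 to 2580, whereas NKX2-1 had 0 reads in all 6 libraries and TG at most 62 normalized counts. Of the 8 thyroid markers that passed the filter, the transcription factors PAX8 (log2FC -1.99, adjusted p = 0.00344) and FOXE1 (log2FC -1.21, adjusted p = 0.0233) fell with siADAR1 #2, none was called with siADAR1 #1, and the median log2FC over the 8 was 0.14 with siADAR1 #2. Summed over the 4 mesenchymal markers, the level was 103953 to 119256 normalized counts with siControl, 14784 to 25875 with siADAR1 #1 and 59643 to 76256 with siADAR1 #2, and most of it came from VIM. VIM fell to 11.8% of siControl with siADAR1 #1 and was at 59.5% with siADAR1 #2. COL1A1 was at 57.5% and 53.7% in the same order, and COL1A2 at 32.7% and 30.6%. CDH2 was at 82.8% and 93.5% and was called with neither. Of the 4 markers, 3 were called down with siADAR1 #1 and 2 with siADAR1 #2. The leukocyte markers CD3E (0 reads) and PTPRC (at most 6 normalized counts) were at or near 0, and the sum over 5 such markers was 248 to 422 with siControl, 440 to 622 with siADAR1 #1 and 802 to 1566 with siADAR1 #2, nearly all of it from CD68. The log2FC of the 13 mitochondrially encoded protein genes lay between -0.28 and 0.49 with the siRNAs, short of a call. Whether these markers bear on the genes below was not tested.

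Most of the replication fork and nucleotide supply genes were lower with both siRNAs, and their median was lower with siADAR1 #2. The genes were chosen with earlier results of these data known. A gene was called changed when its adjusted p was under 0.05 and its log2FC above 0.5 or below -0.5. With siADAR1 #1, 25 of the 48 genes were called down and 0 up, beside 11.4% down and 6.62% up among all genes tested. With siADAR1 #2, 42 were called down and 0 up, beside 16.5% down and 11.7% up among all genes. At an unadjusted p under 0.05, only POLE3 with siADAR1 #1 lay above siControl. The median log2FC of the 48 genes was -0.58 with siADAR1 #1 and -1.03 with siADAR1 #2, beside -0.03 and -0.02 over all genes tested. Of the 48 genes, 43 had a log2FC below 0 with siADAR1 #1 and 48 with siADAR1 #2, beside 52.5% and 51.2% of all genes tested. Both comparisons use the same siControl libraries.

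**Figure D1:**
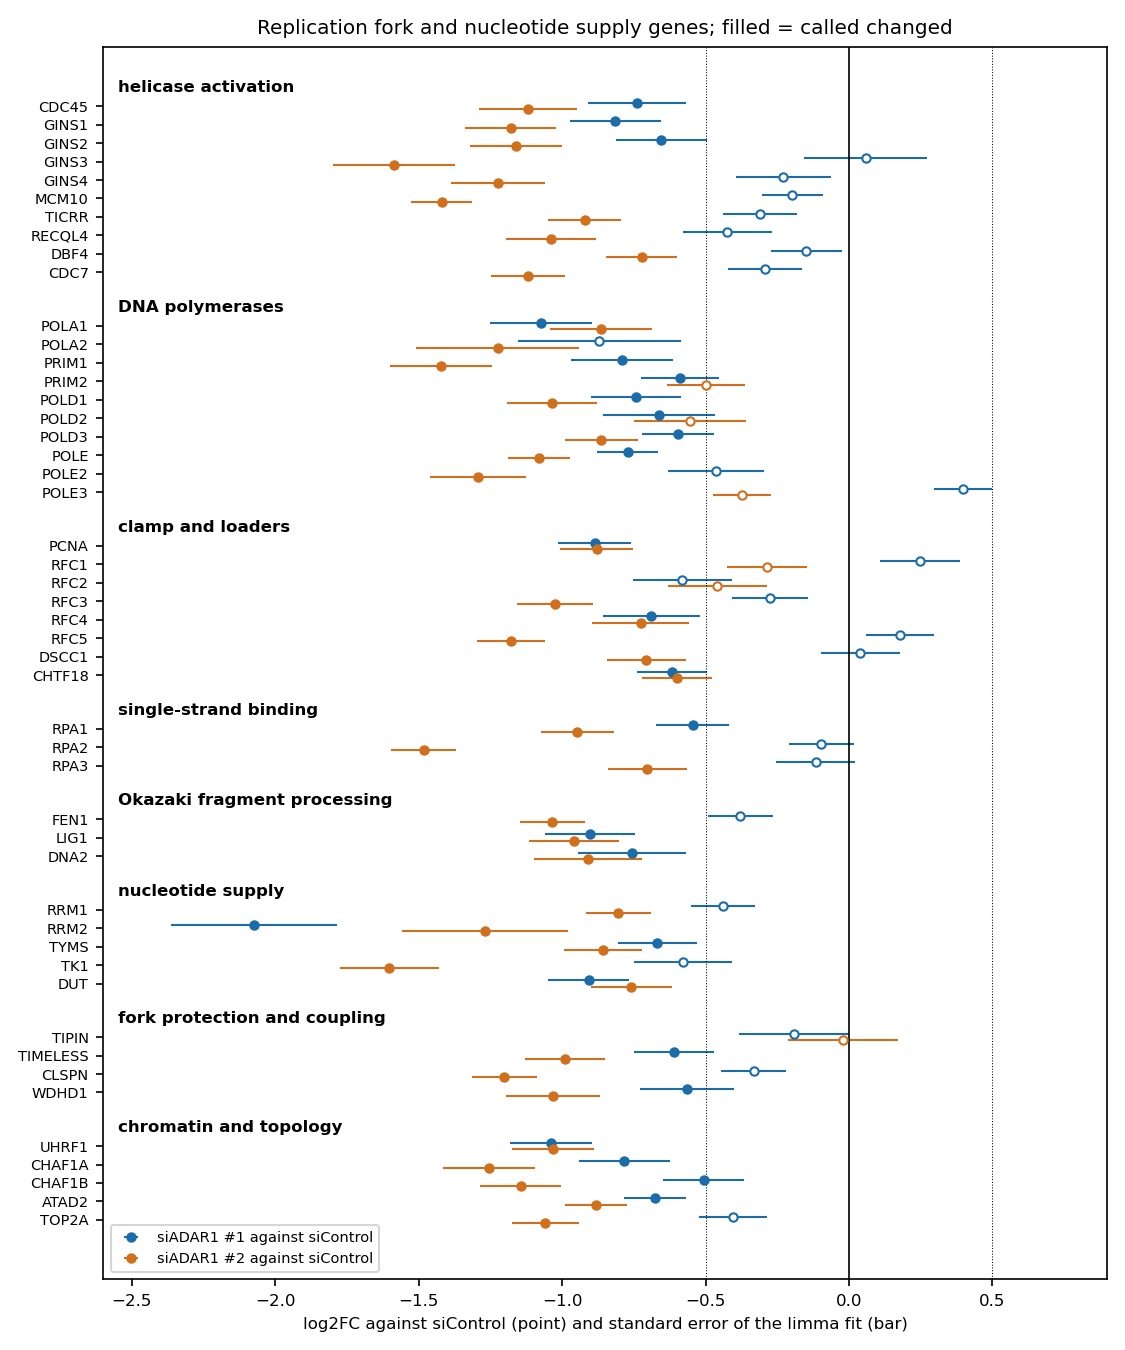
Log2FC of each of the 48 genes against siControl with siADAR1 #1 and siADAR1 #2, grouped by role; bars are standard errors from limma, and dotted lines mark a log2FC of 0.5 in either direction. With siADAR1 #2 the points lie between -1.60 and -0.02, and with siADAR1 #1 between -2.07 and 0.40.

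The genes fall into 4 classes by these calls. Both siRNAs downregulated 23 genes, beside 3.69% of all genes tested. Another 19 were called with siADAR1 #2 only and 2, PRIM2 and POLD2, with siADAR1 #1 only. The remaining 4, POLE3, RFC1, RFC2 and TIPIN, were called with neither. For 41 of the 48 genes each siADAR1 library was lower than each siControl library, which held for 17.3% of all genes. The exceptions were GINS3, GINS4, POLE3, RFC1, RFC5, DSCC1 and TIPIN, whose groups overlapped or, for POLE3, RFC1 and RFC5, lay on opposite sides of siControl.

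The count for siADAR1 #1 rested on single libraries and on the scaling. It was 9 without replicate 1 of siADAR1 #1, 6 without siControl replicate 2 and 0 without siControl replicate 1, where the smallest adjusted p was 0.0511 and 31 genes had an unadjusted p under 0.05. Among all genes tested the count in either direction also dropped, from 3536 to 1470, 1288 and 408 in the same order. The median log2FC of the 48 genes was -0.42 without that siADAR1 #1 library, and -0.57 and -0.56 without the siControl libraries. Shifting the libraries to the same median raised the median log2FC of all genes from -0.03 to 0.15, and then 14 of the 48 genes were called lower and POLE3 higher. Of all genes called with siADAR1 #1, 2240 of 3536 were lower, against 1574 of 3764 after this shift and 1855 of 3556 after quantile normalization. For siADAR1 #2 the count of the 48 genes stayed between 35 and 43 under every alternative tried.

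**Figure D2:**
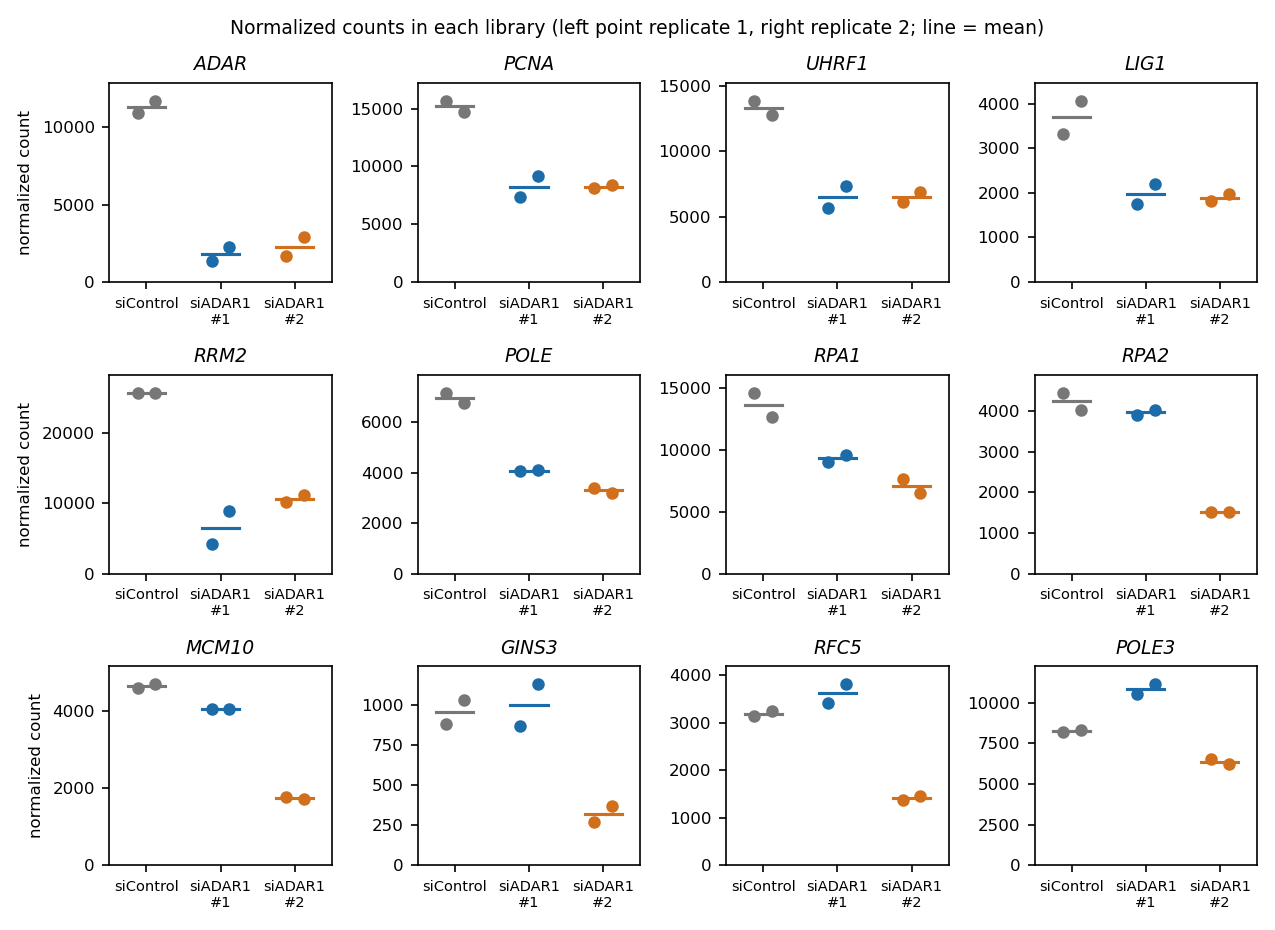
Normalized counts (y axis, starting at 0) of ADAR and 11 of the 48 genes in the 2 libraries of each group; the left point is replicate 1, the right point replicate 2 and the line their mean. PCNA, UHRF1, LIG1, RRM2, POLE and RPA1 are lower with both siRNAs, RPA2, MCM10, GINS3 and RFC5 are lower with siADAR1 #2, and POLE3 lies above siControl with siADAR1 #1 and below it with siADAR1 #2.

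Values in every library are given for the members of each role with the smallest adjusted p in either comparison and for those called with neither siRNA. GINS2, GINS3, GINS4, POLA1, PRIM2, RRM2, DUT, DSCC1 and UHRF1 were added after their values were seen.

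Among the 10 genes that activate the helicase at origins, all 10 fell with siADAR1 #2 and 3 fell with siADAR1 #1 (GINS1, GINS2 and CDC45). Their median log2FC was -0.30 with siADAR1 #1 and -1.14 with siADAR1 #2. MCM10, which helps the assembled helicase to unwind the origin (chromosome 10, 13161558 to 13211110), had 4593 and 4693 normalized counts in siControl, 4060 and 4036 with siADAR1 #1, and 1759 and 1709 with siADAR1 #2. The 3 groups did not overlap and the replicates lay close together, but the log2FC with siADAR1 #1 was -0.20 ± 0.11 (adjusted p = 0.236) and that with siADAR1 #2 was -1.42 ± 0.11 (adjusted p = 0.000291). CDC7, the kinase that fires loaded origins, had 2863 and 2666 normalized counts in siControl, 2250 and 2258 with siADAR1 #1, and 1175 and 1372 with siADAR1 #2. It fell with siADAR1 #2 to 46.1% of siControl (log2FC -1.12 ± 0.13, adjusted p = 0.000851), and its log2FC with siADAR1 #1 was -0.29 (adjusted p = 0.154). Its activating subunit DBF4 fell with siADAR1 #2 by 0.72 on the log2 scale (adjusted p = 0.00374). TICRR and RECQL4, which take part in loading CDC45 and GINS, fell with siADAR1 #2 (log2FC -0.92 and -1.04).

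The GINS complex has 4 subunits, of which 2 were called with siADAR1 #1 and all 4 with siADAR1 #2. GINS1 had 5700 and 5450 normalized counts in siControl, 2756 and 3644 with siADAR1 #1, and 2270 and 2666 with siADAR1 #2, and GINS2 had 2483 and 2259, 1334 and 1697, and 986 and 1134 in the same order. Both fell with siADAR1 #1 (log2FC -0.81 and -0.65, adjusted p = 0.0125 and 0.026) and with siADAR1 #2 (-1.18 and -1.16, adjusted p = 0.00148 and 0.00159). GINS3, the least expressed of the 48 genes per kb of exon, had 878 and 1027 normalized counts in siControl, 866 and 1128 with siADAR1 #1, and 269 and 368 with siADAR1 #2. GINS4 had 5020 and 4845 in siControl, 3581 and 4945 with siADAR1 #1, and 1976 and 2251 with siADAR1 #2. With siADAR1 #1 the libraries of GINS3 and GINS4 overlapped those of siControl (log2FC 0.06 and -0.23, adjusted p = 0.879 and 0.375), while with siADAR1 #2 both fell, to 33.4% and 42.9% of siControl (log2FC -1.59 and -1.22, adjusted p = 0.00149 for both). Of the exon bases of GINS4, 23.4% also lie in exons of a gene on the opposite strand, and whether reads were counted by strand is not stated.

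Of the 10 genes for the replicative polymerases and primase, 7 fell with siADAR1 #1 and 7 with siADAR1 #2, 5 of them with both. POLE, the catalytic subunit of the leading-strand polymerase epsilon, had 7187 and 6789 normalized counts in siControl, 4078 and 4104 with siADAR1 #1, and 3412 and 3192 with siADAR1 #2. It fell to 58.5% and 47.3% of siControl (log2FC -0.77 ± 0.11 and -1.08 ± 0.11, adjusted p = 0.00449 and 0.000502). POLE2, its second subunit, had 939 and 1159 normalized counts in siControl, 720 and 793 with siADAR1 #1, and 406 and 442 with siADAR1 #2, and was called with siADAR1 #2 only (log2FC -1.29, adjusted p = 0.00127, against -0.46 and 0.0908 with siADAR1 #1). POLE3, a histone-fold subunit of polymerase epsilon that is also found in a chromatin remodeling complex, moved in no called direction. Its libraries had 8196 and 8316 normalized counts in siControl, 10582 and 11165 with siADAR1 #1, and 6512 and 6233 with siADAR1 #2. Its log2FC was 0.40 ± 0.10 with siADAR1 #1 (adjusted p = 0.0305) and -0.37 ± 0.10 with siADAR1 #2 (adjusted p = 0.0254), both short of the 0.5 required for a call, and the difference between the siRNAs was called.

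PRIM1, the catalytic subunit of primase, had 1885 and 1510 normalized counts in siControl, 927 and 1022 with siADAR1 #1, and 560 and 703 with siADAR1 #2, and fell to 57.4% and 37.2% of siControl (adjusted p = 0.0195 and 0.00111). PRIM2, the larger primase subunit, had 3102 and 3002 in siControl, 1819 and 2260 with siADAR1 #1, and 2195 and 2130 with siADAR1 #2. Its log2FC of -0.59 with siADAR1 #1 was called (adjusted p = 0.022), and that of -0.50 with siADAR1 #2 (adjusted p = 0.027) did not pass the fold limit. POLA1, the catalytic subunit of polymerase alpha, had 4623 and 4713 in siControl, 1888 and 2602 with siADAR1 #1, and 2287 and 2874 with siADAR1 #2, and fell to 48.1% and 55.3% of siControl (log2FC -1.07 ± 0.18 and -0.86 ± 0.18, adjusted p = 0.00781 and 0.0087). Its partner POLA2 fell with siADAR1 #2 by 1.23 (adjusted p = 0.0139), with a log2FC of -0.87 and an adjusted p of 0.0676 with siADAR1 #1, and 21.3% of its exon bases also lie in another gene on the same strand. Of the 3 polymerase delta subunits among the 48 genes, POLD1 (log2FC -0.74 and -1.03) and POLD3 (-0.60 and -0.86) fell with both siRNAs, and POLD2 fell with siADAR1 #1 by 0.66 (adjusted p = 0.0493), with -0.56 and an adjusted p of 0.0641 for siADAR1 #2. With the replicate number as a block in the fit, POLA2 passed the test with siADAR1 #1 too (adjusted p = 0.0128), and POLD2 with siADAR1 #2 (adjusted p = 0.0434).

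Among the 8 genes for the sliding clamp and its loaders, 3 fell with siADAR1 #1 and 6 with siADAR1 #2. PCNA, the clamp itself (chromosome 20, 5114953 to 5126626), had 15657 and 14723 normalized counts in siControl, 7373 and 9142 with siADAR1 #1, and 8111 and 8399 with siADAR1 #2. The means were 15190 ± 660 (SD, n = 2), 8257 ± 1250 and 8255 ± 204, so that PCNA fell to 54.4% and 54.3% of siControl (log2FC -0.89 ± 0.13 and -0.88 ± 0.13, adjusted p = 0.00492 and 0.00194). PCNA also had the highest level of the 48 genes in siControl, with 10827 normalized counts per kb of exon, followed by TOP2A with 5870, FEN1 with 5701 and RRM1 with 5160, beside a median of 768.8 and 186.46 for GINS3.

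The 5 subunits of the clamp loader RFC did not move as 1 unit. RFC5 had 3135 and 3250 normalized counts in siControl, 3423 and 3812 with siADAR1 #1, and 1365 and 1453 with siADAR1 #2, which gave log2FC values of 0.18 ± 0.12 (adjusted p = 0.336) and -1.18 ± 0.12 (adjusted p = 0.000532). RFC3 had 3157 and 2954 in siControl, 2305 and 2767 with siADAR1 #1, and 1456 and 1545 with siADAR1 #2, and fell with siADAR1 #2 by 1.02 (adjusted p = 0.00131). RFC4 fell with both siRNAs (log2FC -0.69 and -0.73, adjusted p = 0.027 and 0.0142). The large subunit RFC1 had 4861 and 4297 in siControl, 5539 and 5318 with siADAR1 #1, and 3352 and 4192 with siADAR1 #2, so that both siADAR1 #1 libraries lay above siControl and both siADAR1 #2 libraries below it (log2FC 0.25 and -0.29, adjusted p = 0.254 and 0.16). RFC2 had 2941 and 3149 in siControl, 1704 and 2428 with siADAR1 #1, and 2150 and 2279 with siADAR1 #2, below siControl in all 4 libraries with log2FC values of -0.58 and -0.46 and adjusted p = 0.0507 and 0.0796. With the replicate block, RFC2 passed the test with siADAR1 #1 (adjusted p = 0.0212). Of 2 subunits of the alternative loader that serves sister chromatid cohesion, CHTF18 fell with both siRNAs (log2FC -0.62 and -0.60), whereas DSCC1 had 1344 and 1524 in siControl, 1420 and 1522 with siADAR1 #1, and 918 and 835 with siADAR1 #2, and fell with siADAR1 #2 only (log2FC 0.04 and -0.71, adjusted p = 0.874 and 0.0069).

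The 3 subunits of RPA, which binds single-stranded DNA, all fell with siADAR1 #2, and RPA1 fell with siADAR1 #1 too. RPA1 had 14611 and 12656 normalized counts in siControl, 9044 and 9608 with siADAR1 #1, and 7639 and 6506 with siADAR1 #2 (log2FC -0.55 and -0.95, adjusted p = 0.0224 and 0.00146). RPA2 had 4466 and 4044 in siControl, 3908 and 4044 with siADAR1 #1, and 1522 and 1516 with siADAR1 #2 (log2FC -0.10 ± 0.11 and -1.48 ± 0.11, adjusted p = 0.602 and 0.000291). The siADAR1 #1 libraries of RPA2 thus lay at or just below the lower siControl library, and its siADAR1 #2 libraries at 35.7% of siControl. RPA3 had 1681 and 1562 in siControl, 1497 and 1492 with siADAR1 #1, and 918 and 1077 with siADAR1 #2 (log2FC -0.12 and -0.70, adjusted p = 0.602 and 0.00672).

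Of the 3 genes that process Okazaki fragments, LIG1 and DNA2 fell with both siRNAs and FEN1 with siADAR1 #2. LIG1, the replicative ligase, had 3328 and 4056 normalized counts in siControl, 1755 and 2194 with siADAR1 #1, and 1819 and 1967 with siADAR1 #2, and fell to 53.5% and 51.3% of siControl (log2FC -0.90 and -0.96, adjusted p = 0.0089 and 0.00325). FEN1, the flap nuclease, had 13049 and 12012 in siControl, 9000 and 10309 with siADAR1 #1, and 6053 and 6170 with siADAR1 #2. Its 3 groups did not overlap, and its fall by 1.03 was called with siADAR1 #2 (adjusted p = 0.000719), beside -0.38 with siADAR1 #1 (adjusted p = 0.0523). The nuclease-helicase DNA2 had 3130 and 3333 in siControl, 1592 and 2299 with siADAR1 #1, and 1567 and 1887 with siADAR1 #2 (log2FC -0.76 and -0.91, adjusted p = 0.0283 and 0.00871).

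All 5 nucleotide supply genes fell with siADAR1 #2, and RRM2, TYMS and DUT fell with siADAR1 #1 as well. RRM2, the small subunit of ribonucleotide reductase and the subunit whose level limits the enzyme in S phase, had 25729 and 25615 normalized counts in siControl, 4204 and 8833 with siADAR1 #1, and 10214 and 11103 with siADAR1 #2. It had the lowest log2FC of the 48 genes with siADAR1 #1 (-2.07 ± 0.29, adjusted p = 0.00456), and fell with siADAR1 #2 by 1.27 (adjusted p = 0.0129). The siADAR1 #1 replicates of RRM2 differed from each other more than those of the other groups, and its log2FC was -1.54 without replicate 1. With siADAR1 #2 the call of RRM2 was lost without either siControl library (adjusted p = 0.0847 and 0.0757) and without siADAR1 #2 replicate 1 (adjusted p = 0.062). The large subunit RRM1 had 23360 and 20328 in siControl, 15390 and 16790 with siADAR1 #1, and 12406 and 12547 with siADAR1 #2, with a called fall of 0.80 for siADAR1 #2 (adjusted p = 0.00175) and a log2FC of -0.44 within the fold limit for siADAR1 #1 (adjusted p = 0.0317).

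TK1, the cytosolic thymidine kinase of cycling cells, had 3955 and 3842 normalized counts in siControl, 2292 and 2973 with siADAR1 #1, and 1129 and 1456 with siADAR1 #2. Its log2FC of -1.60 ± 0.17 was the lowest of the 48 genes with siADAR1 #2 (adjusted p = 0.000682), and it was -0.58 with siADAR1 #1 (adjusted p = 0.0514, or 0.0212 with the replicate block). TYMS, which makes thymidylate from dUMP, had 6893 and 6950 in siControl, 3929 and 4827 with siADAR1 #1, and 3546 and 4118 with siADAR1 #2 (log2FC -0.67 and -0.86, adjusted p = 0.0152 and 0.00295). Of the exon bases of TYMS, 47.9% also lie in exons of ENOSF1 on the opposite strand. DUT, which removes dUTP and makes dUMP, had 5284 and 4918 in siControl, 2419 and 3049 with siADAR1 #1, and 2868 and 3162 with siADAR1 #2, and fell to 53.6% and 59.1% of siControl (adjusted p = 0.00632 and 0.00555).

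Of the 4 genes that protect the fork or couple its parts, TIMELESS and WDHD1 fell with both siRNAs, CLSPN with siADAR1 #2, and TIPIN with neither. TIMELESS had 6819 and 6283 normalized counts in siControl, 3866 and 4754 with siADAR1 #1, and 3071 and 3540 with siADAR1 #2 (log2FC -0.61 and -0.99, adjusted p = 0.0214 and 0.0018). TIPIN encodes the binding partner of TIMELESS, and it had 1259 and 1368 in siControl, 945 and 1396 with siADAR1 #1, and 1327 and 1263 with siADAR1 #2 (log2FC -0.19 ± 0.19 and -0.02 ± 0.19, adjusted p = 0.53 and 0.95). The libraries of TIPIN overlapped in both comparisons, and 21.1% of its exon bases also lie in a pseudogene on the same strand. CLSPN (claspin), which links the fork to the checkpoint kinase CHK1, had 4717 and 4834 in siControl, 3659 and 3930 with siADAR1 #1, and 1983 and 2168 with siADAR1 #2 (log2FC -0.33 and -1.20, adjusted p = 0.0778 and 0.000443). WDHD1, which ties polymerase alpha to the helicase, had 4827 and 5001 in siControl, 2800 and 3937 with siADAR1 #1, and 2311 and 2496 with siADAR1 #2 (log2FC -0.57 and -1.03, adjusted p = 0.0485 and 0.00296).

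The 5 genes that act on chromatin or DNA topology behind the fork all fell with siADAR1 #2, and all but TOP2A fell with siADAR1 #1. UHRF1, which binds hemimethylated DNA and recruits the maintenance methyltransferase, had 13824 and 12726 normalized counts in siControl, 5687 and 7327 with siADAR1 #1, and 6146 and 6852 with siADAR1 #2, and fell to 49.0% of siControl with each siRNA (log2FC -1.04 and -1.03, adjusted p = 0.00445 and 0.00168). ATAD2 had 16403 and 15263 in siControl, 9384 and 10460 with siADAR1 #1, and 8591 and 8586 with siADAR1 #2 (log2FC -0.68 and -0.88, adjusted p = 0.00682 and 0.00105). Both large subunits of the histone chaperone CAF-1 fell, CHAF1A with log2FC values of -0.78 and -1.26 and CHAF1B with -0.51 and -1.14. CHAF1B had 1767 and 1760 in siControl, 1220 and 1262 with siADAR1 #1, and 727 and 873 with siADAR1 #2. TOP2A, which untangles replicated DNA and peaks later in the cycle than most of these genes, had 39045 and 35786 in siControl, 28372 and 28135 with siADAR1 #1, and 16569 and 19424 with siADAR1 #2 (log2FC -0.40 and -1.06, adjusted p = 0.0466 and 0.000732).

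The siRNAs were then compared with each other in the same fit, since a call with one and not with the other does not show a difference. Of the 48 genes, 22 were higher with siADAR1 #1 than with siADAR1 #2 and 0 were lower, beside 16.9% higher and 17.6% lower among all genes tested. The median log2 difference was 0.44 over the 48 genes and -0.004 over all genes tested. At an unadjusted p under 0.05 in limma, 28 genes were higher and RRM2 lower with siADAR1 #1. Among all 19590 genes tested, 9286 had such a p in either direction. The classes by call come from the same fit as the difference between the siRNAs, so the sorting itself favors a difference in genes called with 1 siRNA only. The share among all genes sorted in this way was not computed, and the counts by class only describe the 48 genes. Of the 19 genes called with siADAR1 #2 only, the difference was called for 17, all but POLA2 and RRM1. Of the 23 called with both siRNAs it was called for 3, GINS2, PRIM1 and CHAF1B, and of the 4 called with neither it was called for POLE3 and RFC1. Neither PRIM2 nor POLD2, called with siADAR1 #1 only, differed between the siRNAs past the test (adjusted p = 0.632 and 0.705). Without siADAR1 #2 replicate 1 the count was 14.

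GINS3 had the largest difference of the 48 genes, with a log2 difference of 1.65 ± 0.21 (adjusted p = 0.000966). RPA2 followed with 1.39 ± 0.11 (adjusted p = 0.000208), RFC5 with 1.36 (adjusted p = 0.00025), MCM10 with 1.22 (adjusted p = 0.000246) and TK1 with 1.02 (adjusted p = 0.00282). These genes belong to 4 roles, helicase activation, single-strand binding, clamp loading and nucleotide supply. By role, the difference was called for 8 of 10 helicase activation genes, 3 of 10 polymerase genes, 4 of 8 clamp and loader genes, 2 of 3 RPA genes, 2 of 5 chromatin genes and 1 gene in each other role. At the other end, PCNA and UHRF1 each had a log2 difference of -0.01 (SE 0.13 and 0.14), and CHTF18 one of -0.02. RRM2 had the lowest, -0.81 ± 0.29 (adjusted p = 0.0594, or 0.022 with the replicate block, which called it), and this difference reached -1.34 (adjusted p = 0.000698) without siADAR1 #1 replicate 2.

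**Figure D3:**
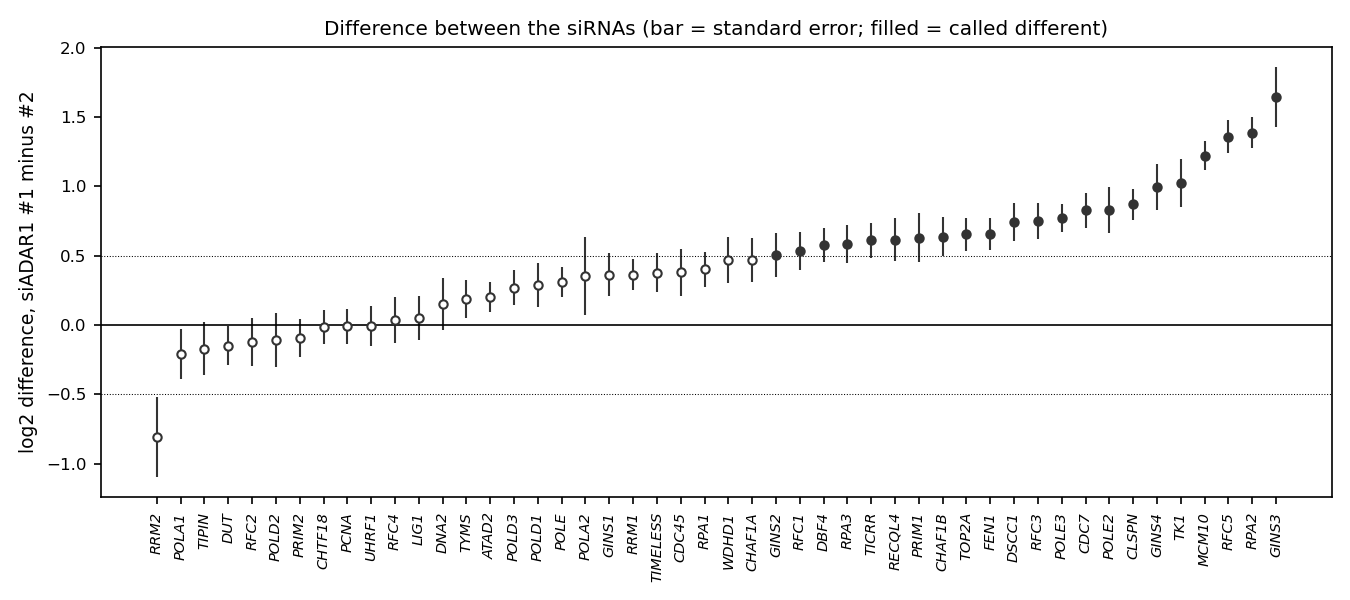
Log2 difference between siADAR1 #1 and siADAR1 #2 for each of the 48 genes, in order of size; bars are standard errors from limma, filled points passed the test and dotted lines mark 0.5 in either direction. The 22 filled points all lie above 0, up to 1.65 for GINS3, and RRM2 is lowest at -0.81.

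The 2 replicates of a siRNA differed in size. Relative to the siControl mean, the median of the 48 genes was -0.74 and -0.42 on the log2 scale in replicates 1 and 2 of siADAR1 #1, and -1.05 and -0.96 in those of siADAR1 #2, while the median of all genes tested lay between -0.04 and -0.01 in these libraries. Of the 48 genes, 42 were lower in replicate 1 than in replicate 2 of siADAR1 #1, 38 in siADAR1 #2 and 20 in siControl. The share of all genes lower in replicate 1 was not computed, so these counts are not shown to be particular to the 48 genes. The level of ADAR was lower in replicate 1 than in replicate 2 of each siRNA, at 1328 against 2246 and 1664 against 2928 normalized counts. It was lower in replicate 1 of siControl too, at 10906 against 11701. Between the siRNAs, ADAR was at 15.8% of siControl with siADAR1 #1 and 20.3% with siADAR1 #2. The median log2FC of the 48 genes was -0.58 and -1.03 in the same order. The part of ADAR in the spread between replicates was not tested.

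**Figure D4:**
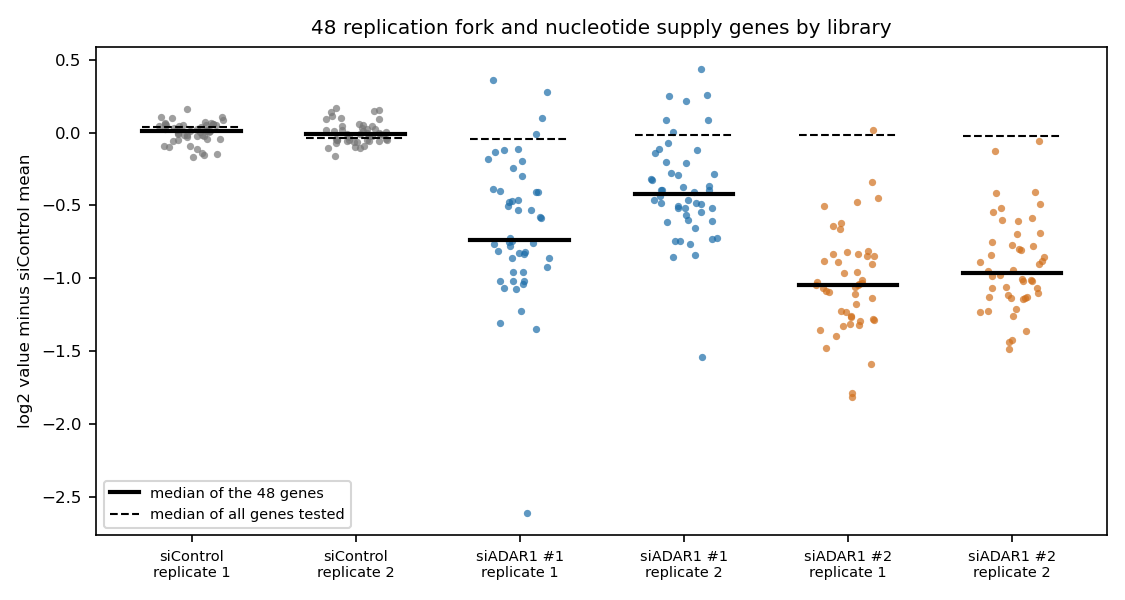
Log2 value of each of the 48 genes minus its siControl mean (y axis) in each of the 6 libraries; points are genes, the thick line is their median and the dashed line the median of all genes tested. The medians are -0.74 and -0.42 with siADAR1 #1 and -1.05 and -0.96 with siADAR1 #2, and the dashed lines stay near 0.

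When the 4 siADAR1 libraries were taken as 1 group against siControl, limma called 0 of the 48 genes and 0% of all genes tested. This fit counts the difference between the siRNAs as spread within the group. The targeted gene ADAR, with a log2FC of -2.53, was not called in it either. The smallest adjusted p was 0.112 among the 48 genes and 0.0972 among all genes, and voom also called 0. At an unadjusted p under 0.05 there were 34 of the 48 genes, and 2818 of all genes. In this fit the median log2FC of the 48 genes was -0.77, with 47 of them below 0, beside 52.8% of all genes tested. When the average of both siRNA changes was tested with the siRNAs as separate groups, 42 of the 48 genes were called down, beside 2335 of the 19590 genes tested.

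Other genes of replication were examined from further lists, which were also chosen with earlier results of these data known. Among all genes tested, 11.4% were called down and 6.62% up with siADAR1 #1, and 16.5% down and 11.7% up with siADAR1 #2. Of 16 licensing genes, which load the helicase in G1, 7 fell with siADAR1 #1 and 14 with siADAR1 #2, and 0 rose with either (median log2FC -0.47 and -0.87). The helicase subunit MCM5 fell most clearly with siADAR1 #1 (log2FC -1.58, adjusted p = 0.00337), and the loader CDC6 with siADAR1 #2 (log2FC -1.74, adjusted p = 0.000254). Of 29 further fork genes, 6 fell with siADAR1 #1 and 21 with siADAR1 #2, among them DONSON (log2FC -0.91, adjusted p = 0.00708, siADAR1 #1) and the origin firing factor MTBP (log2FC -1.58, adjusted p = 0.000395, siADAR1 #2). POLD4, the small accessory subunit of polymerase delta, was the 1 fork gene that rose. It had 477 and 466 normalized counts in siControl, 396 and 384 with siADAR1 #1, and 1487 and 1367 with siADAR1 #2 (log2FC 1.59 ± 0.15, adjusted p = 0.000425), so the delta subunits POLD1 and POLD3 fell and POLD4 rose with siADAR1 #2.

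Of 34 further nucleotide metabolism genes, 9 fell and 2 rose with siADAR1 #1, and 16 fell and 1 rose with siADAR1 #2 (median log2FC -0.29 and -0.46). The share that fell was 26.5% and 47.1%, beside 11.4% and 16.5% of all genes tested. Of all genes tested, 6.62% rose with siADAR1 #1 and 11.7% with siADAR1 #2. The serine hydroxymethyltransferases, which supply one-carbon units, split. SHMT1, the cytosolic enzyme, fell with both siRNAs (log2FC -1.10 and -0.62, adjusted p = 0.00313 and 0.0089). The mitochondrial enzyme SHMT2 rose with both siRNAs, with 6351 and 6573 normalized counts in siControl, 9874 and 12224 with siADAR1 #1, and 13680 and 12697 with siADAR1 #2 (log2FC 0.77 and 1.03, adjusted p = 0.00791 and 0.00112). PPAT, the first enzyme of purine synthesis, fell with siADAR1 #2 (log2FC -1.13, adjusted p = 0.000584).

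Promoters of these genes were read for 3 motifs on both strands. The window was the 300 bases from 250 before to 50 after the RefSeq start (GRCh38.p14). Promoters were found for 40 of the 48 genes. An E2F motif (TTTCCCGC, TTTCGCGC, TTTGCCGC or TTTGGCGC) was found in 13 of 40 (32.5%), against 3.33% of all 27305 promoters of this length. It was found in 8 of the 20 promoters of genes called with both siRNAs and in 5 of the 14 of genes called with siADAR1 #2 only. The CCAAT box (CCAAT) was found in 22 of 40 (55.0%), against 35.7% of all promoters, and the core of the CHR element (TTTGAA or TTCGAA) in 3 of 40 (7.5%), against 16.62%. None of these spellings contains another. Many of these genes are known to be transcribed under E2F factors, so a higher E2F share says nothing of the siRNAs. A match is a description of the letters and says nothing of binding in these cells.

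The following promoter stretches were chosen because each holds 1 E2F match before the first annotated exon base of its window. The match is in capitals, here on the strand opposite to the spelling above. Each gene shown fell with both siRNAs, but the calls were not used in the choice. Other genes that fell with both siRNAs also held an E2F match. The stretches read 5′ to 3′ in the direction of the gene. They hold no base of an annotated exon (GENCODE 44), for which those of PCNA and POLA1 stop short of the start. The PCNA stretch is chr20:5126627-5126872 on the minus strand with the match starting 59 bases before the start, that of POLA1 is chrX:24693668-24693872 on the plus strand with the match at 137 bases, and that of GINS2 is chr16:85688955-85689204 on the minus strand with the match at 31 bases. The GINS2 stretch lies inside the gene's GENCODE span, since 1 transcript starts further upstream.
PCNA: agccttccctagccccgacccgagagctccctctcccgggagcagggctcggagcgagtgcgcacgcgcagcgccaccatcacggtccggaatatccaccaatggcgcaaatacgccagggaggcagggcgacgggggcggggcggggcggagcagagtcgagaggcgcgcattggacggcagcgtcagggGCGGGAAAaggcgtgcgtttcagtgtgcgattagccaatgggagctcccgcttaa
POLA1: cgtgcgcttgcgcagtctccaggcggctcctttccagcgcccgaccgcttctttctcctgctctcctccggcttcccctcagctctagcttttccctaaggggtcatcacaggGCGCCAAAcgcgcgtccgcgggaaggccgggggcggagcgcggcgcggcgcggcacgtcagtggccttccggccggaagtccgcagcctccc
GINS2: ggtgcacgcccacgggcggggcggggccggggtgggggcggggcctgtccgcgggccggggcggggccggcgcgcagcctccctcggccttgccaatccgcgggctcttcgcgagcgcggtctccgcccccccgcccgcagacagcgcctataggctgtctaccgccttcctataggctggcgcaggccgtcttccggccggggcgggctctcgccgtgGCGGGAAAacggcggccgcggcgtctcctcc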

How the data were processed

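Poly(A)+ RNA of Cal62 cells was sequenced (KAPA mRNA HyperPrep, NextSeq 500, paired-end) from 2 replicates each of siControl, siADAR1 #1 and siADAR1 #2. Per the labels and the methods of the study, the authors trimmed adapters with Atropos, checked reads with FastQC, counted them on GRCh38 genes with featureCounts, with Salmon also named, in bcbio-nextgen, and normalized them with DESeq2. Versions are not given in the sources used here. The values the authors deposited are log2 values from a variance-stabilizing transformation of size-factor-normalized counts. Undoing it gave whole reads for 100% of the values in each library (tolerance 0.1), 49173897 and 46219651 reads with siControl, 50029763 and 38212544 with siADAR1 #1, and 39792163 and 30114840 with siADAR1 #2. A count of 0 allows up to 3 reads, which is 2.805 to 4.394 normalized counts, for counting error only. No column was left unused.

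The log2 values of the 19590 genes with a mean above 10 normalized counts were fitted by limma (version 3.58.1, R 4.3.3, with lmFit and trended eBayes, two-sided, Benjamini-Hochberg over all genes tested). The fit with 3 groups had 3 residual degrees of freedom and that with the siADAR1 libraries as 1 group had 4. P-values measure only the spread between these libraries, whose replicates the study calls biologically independent. Levels per kb use the exon union of GENCODE 44. Symbols were found for 57830 of 58333 identifiers. The genes and lists were chosen with earlier results of these data known. Values in every library were given for at most 3 genes per role with the smallest adjusted p, for genes called up or in opposite directions, of which there was none, and for genes called with neither siRNA. At most 3 genes per further list and comparison were named, and some that this rule covers are not reported here. Replicate 2 minus replicate 1 correlated between groups at 0.116, 0.123 and 0.180 over the genes tested, and principal component 3 (10.5% of variance) set replicate 1 apart from replicate 2 in each group, so same-numbered libraries deviated together to a small extent. No label gives a source of this pairing, and the main fits carry no block. The steps were tested on simulated reads in which the changed genes moved equally with both siRNAs and no replicate effect was added. The simulation could thus not check how a difference between the siRNAs is found, or how the fit as 1 group handles one. Alternatives were other filters, scalings, spread models and scales, voom on the recovered reads (TMM factors), the 4 libraries compared alone, the block on replicate number and fits without each library.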

Additional observations from a re-analysis of the deposited data

Results flagged for a closer look

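The 22 genes for which the change differed between the siRNAs were marked for a closer look by the test of that difference (limma, adjusted p under 0.05 and a log2 difference beyond 0.5), with siADAR1 #1 above siADAR1 #2 in each. Among genes that fell with siADAR1 #2 only, the log2 differences were GINS3 1.65, RPA2 1.39, RFC5 1.36, MCM10 1.22, TK1 1.02, GINS4 0.99, CLSPN 0.87 and POLE2 0.83. The smaller ones of the same class were CDC7 0.83, RFC3 0.75, DSCC1 0.75, FEN1 0.66, TOP2A 0.66, RECQL4 0.61, TICRR 0.61, RPA3 0.59 and DBF4 0.57. Among genes that fell with both siRNAs they were GINS2 0.51, PRIM1 0.63 and CHAF1B 0.64, and among genes called with neither siRNA POLE3 0.77 and RFC1 0.53. With 2 libraries per group, no single library could be tested as an outlier.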

How the results depend on the processing

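Of the 25 genes called with siADAR1 #1, 7 (DUT, LIG1, PCNA, POLA1, POLE, RRM2 and UHRF1) were called under all 10 alternatives that kept every library and 0 under all 14. The count was 15 with median-centred libraries and 8 by eBayes without a trend, and between 0 and 27 with 1 library left out, where 1 group is left with a single library that is assumed to vary like the others. The median log2FC was -0.40 with median-centred libraries and between -0.74 and -0.42 with 1 library left out. With siADAR1 #2, 33 of the 42 genes were called under all 14 alternatives, the median was -0.87 after quantile normalization, and the count with 1 library left out was 35 to 42. The 9 others were CHTF18, DNA2, DSCC1, DUT, POLA1, POLA2, RFC4, RPA3 and RRM2, each lost without siControl replicate 1, siControl replicate 2 or siADAR1 #2 replicate 1. Under the 10 alternatives that kept every library, 38 of the 42 genes were called throughout, so some of the 9 were lost there too. Of the 22 differences between the siRNAs, 14 were called under all 14 alternatives, and the count with 1 library left out was 14 to 26. As 1 group, 0 genes were called in every alternative but the average of the siRNA changes, which called 42. Alternatives with no value named here kept these counts within 1.5 times.

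The signs of small log2FC values turned. With siADAR1 #1 and median-centred libraries, DBF4 was 0.03, RPA2 0.082 and RPA3 0.062, and with 1 library left out GINS3 ranged from -0.13 to 0.25, DSCC1 from -0.052 to 0.13, GINS4 from -0.46 to 0.004 and TIPIN from -0.47 to 0.089. With siADAR1 #2, TIPIN was 0.055 with median-centred libraries, 0.12 after quantile normalization, 0.031 by voom and -0.08 to 0.04 with 1 library left out. For the difference between the siRNAs, PRIM2 was 0.011, PCNA 0.10, CHTF18 0.088 and UHRF1 0.10 with median-centred libraries, and RFC4 was -0.02 after quantile normalization. With 1 library left out the difference ranged from -0.44 to 0.021 for POLA1, -0.25 to 0.064 for PRIM2, -0.40 to 0.19 for POLD2, -0.16 to 0.15 for PCNA, -0.38 to 0.13 for RFC2, -0.32 to 0.018 for DUT, -0.45 to 0.11 for TIPIN, -0.19 to 0.17 for UHRF1, -0.12 to 0.83 for POLA2, -0.14 to 0.21 for RFC4, -0.074 to 0.043 for CHTF18, -0.11 to 0.21 for LIG1 and -0.11 to 0.42 for DNA2. None of these was called with all libraries in the fit as reported, and the cause was not tested.

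With the replicate number as a block, 28 genes were called with siADAR1 #1, 43 with siADAR1 #2, 23 between the siRNAs and 0 as 1 group. Beyond the calls gained by POLA2, RFC2, TK1, POLD2 and RRM2 it changed no call. With 2 libraries per group, the number of replicates limits the precision, and a change that missed the test is not shown to be absent.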
